A study of Mus musculus with 8 samples.

Results

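The ADAM and ADAMTS genes encode zinc metalloproteases that act on cell surfaces and in the extracellular matrix. They were taken from the deposited table by symbol, as every gene named Adam, Adamts or Adamtsl followed by a number and at most 1 letter. This gave 57 of the 22520 genes: 33 ADAM, 19 ADAMTS and 5 ADAMTS-like genes. Expression had been measured by RNA sequencing in 8 libraries of mouse microvascular endothelial cells (ECs), which the labels describe as mixed from heart, liver and lung. The study's paper instead describes separate sequencing of ECs from liver and of ECs from heart and lung, so which organs each library holds is uncertain. The C57BL/6 mice were at postnatal day 14. Of the 8 libraries, 4 came from mice with an endothelial knockout of LRP1 (LRP1 KO) and 4 from wild-type littermates (WT). According to the study's methods, its endothelial knockout mice were LRP1 f/f; Cdh5-CreER+/-, in which an inducible Cre is driven by the promoter of the VE-cadherin gene, and its WT mice were LRP1 f/f; Cdh5-CreER-/-, so that the floxed alleles were common to the groups and the CreER transgene was not. ECs were selected with beads against PECAM-1. The labels do not say whether each library is 1 mouse or a pool, so p-values measure the spread between these libraries, which may be partly technical.

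The ADAMs are mostly membrane-anchored, and those with an active protease domain release the outer parts of other membrane proteins, a step called shedding. ADAM10 and ADAM17 are the best known of these in ECs, where they cut Notch receptors, cadherins, cytokines and growth factor precursors. Others lack protease activity and serve as adhesion molecules or receptors, and many are made almost only in testis. The ADAMTS proteases are secreted and bound to matrix, where they cut proteoglycans such as versican, trim procollagens or cut von Willebrand factor, while the ADAMTS-like proteins share their matrix-binding parts but have no protease domain. LRP1 is known to take up ADAMTS4, ADAMTS5 and the inhibitor TIMP3 from outside the cell, and is itself a substrate of shedding. The question here was which of these transcripts differed in cells that lack LRP1.

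Values are taken to be in FPKM, a unit that the table does not name, the sequenced fragments of a gene divided by transcript length and library size, which carry a correction for length and so allow levels to be set side by side between genes. Their sums were 503571 to 504112 per library and the highest value was 7793 in each, as after quantile normalization, so that sequencing depth is unknown and the precision rests on the spread between libraries. The targeted gene matched the labels: Lrp1 was at 103 to 140.4 FPKM across WT against 2.79 to 7.72 FPKM across LRP1 KO. LRP1 KO library 4 stood apart from the other 3 on the first principal component of all tested genes, at 0.102 against 17.2 to 27.3, with WT at -24.1 to -12.9. The EC markers were present but not high. In WT, Pecam1 was at 6.80 to 8.76 FPKM and Cdh5 at 8.87 to 11.2 FPKM, Sox17 was under 1 in every library, and the 16 EC markers summed to 172 to 187 FPKM. By contrast, 12 fibroblast markers summed to 2641 to 3811 FPKM across WT, with Col1a1 at 395 to 565 FPKM, and 12 markers of mural cells (pericytes and smooth muscle) to 675 to 841 FPKM. Sums over the marker lists of other cells were at most 1.69 FPKM for hepatocytes, 7.50 for lung epithelium, 154.7 for cardiomyocytes and 380 for hepatic stellate cells in any library.

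Of the 57 genes, 10 were listed at 0 in every library, 24 were above 0 in at least 1 library but too low to be tested, and 23 reached 1 FPKM in at least 4 libraries and were tested. The tested genes were 10 ADAM, 10 ADAMTS and 3 ADAMTS-like genes. In WT their mean levels ran from 0.980 FPKM for Adamts14 to 157.9 FPKM for Adamts1, and 13 of them were at 10 FPKM or more. Adamts1, a secreted protease of versican and aggrecan, was the highest, at 118, 139.9, 195 and 179 FPKM across WT libraries 1 to 4. It was followed by the sheddase Adam9 (94.9 ± 15.7 FPKM, SD, n = 4), by Adam15, which pairs a protease with an integrin-binding domain (74.1 ± 4.69 FPKM), and by Adamts2, which trims procollagens (59.0 ± 10.2 FPKM). For each of these, the lowest WT library was above the highest WT library of the next gene in order. From Adamtsl5 at 38.0 ± 2.89 FPKM down to Adam17 at 21.8 ± 1.70 FPKM lay 7 genes (Adamtsl5, Adam10, Adamts5, Adamts7, Adam23, Adamts9 and Adam17) of which each overlapped the next in WT. The plot of FPKM by library shows this order.

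**Figure D1:**
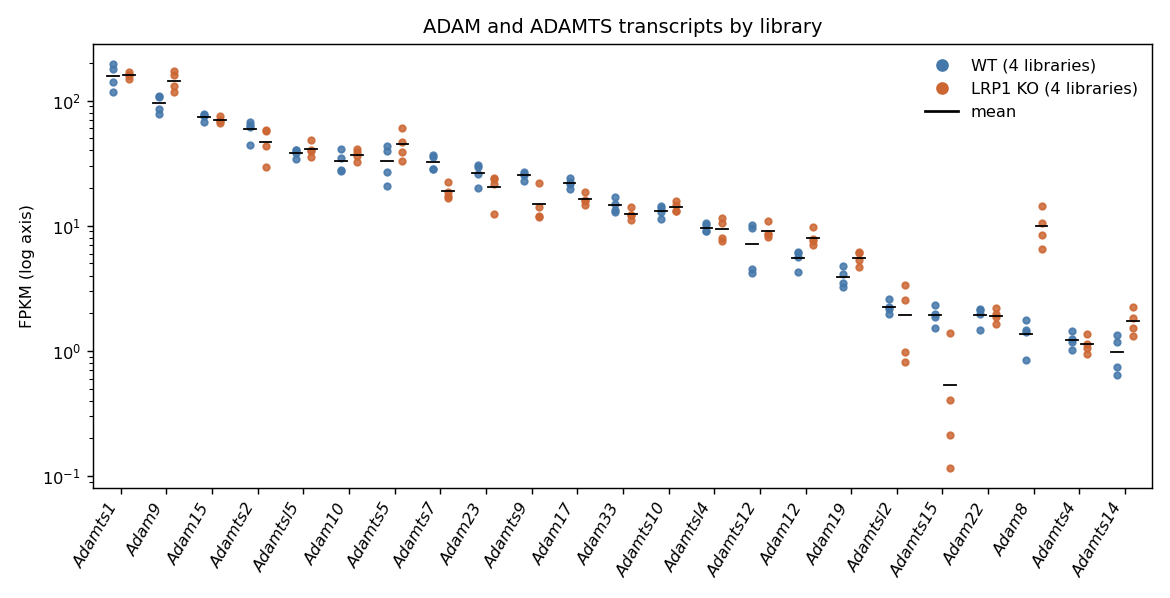
FPKM (log axis) of the 23 tested ADAM, ADAMTS and ADAMTS-like genes, ordered by the mean in WT; points are libraries (4 WT in blue, 4 LRP1 KO in orange) and black bars are means. Adam8 is the gene with the widest gap between the groups (0.849 to 1.76 FPKM across WT, 6.55 to 14.3 FPKM across LRP1 KO), and Adamts15 has 3 LRP1 KO libraries under 0.5 FPKM and the fourth at 1.40 FPKM.

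In LRP1 KO against WT, 8 of the 23 tested genes changed at an adjusted p-value under 0.05 (limma on log2(FPKM + 1), Benjamini-Hochberg over all 11389 tested genes). Adam8, Adam9, Adam12 and Adam19 were higher, and Adam17, Adamts7, Adamts9 and Adamts15 were lower. All 4 that rose and 1 of the 4 that fell were ADAM genes, the other 3 that fell were ADAMTS genes, and none of the 3 tested ADAMTS-like genes passed, at log2 differences from -0.24 to 0.10. The 8 are 34.8% of the tested members, where 13.6% of all tested genes were called, 6.27% higher and 7.31% lower. This share describes the members that passed the filter on low values, not the family, because Adam8 and Adamts14 reached 1 FPKM in all LRP1 KO libraries but in only 3 and 2 WT libraries, and Adamts15, Adamtsl2 and Adamts4 in all WT libraries but in only 1, 2 and 3 LRP1 KO libraries. Without that filter, 4 members were called, and 6.45% of the 18026 genes then tested. On the log2(FPKM + 1) scale, Adam8 alone among the called members also reached a difference of 1, or 2-fold, a limit met by 1.62% of all tested genes, and by 1.12% in the direction of higher values. Adamts15 missed it at -0.996, although its mean FPKM was 27.6% of WT, and met it with a pseudocount of 0.1; without WT library 1 or 4 or LRP1 KO library 4, 2 members met it. The groups did not overlap in 7 of the 23 tested members, or 30.4%, where this held for 19.6% of all tested genes, 8.84% higher and 10.7% lower. Of these 7 members, 3 were higher and 4 lower in LRP1 KO, and they are the called genes other than Adam19. Calls for these genes depended on the libraries used: only Adam8 and Adamts7 passed in each of the 8 fits that left out 1 library, and these were the only members called without WT library 2 or without LRP1 KO library 1, 2 or 3. Calls over all tested genes also fell there, from 13.6% to between 4.5% and 4.97%. Without LRP1 KO library 4, all 8 were called again and Adamts14 joined them, and 26.5% of all tested genes were called.

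**Figure D2:**
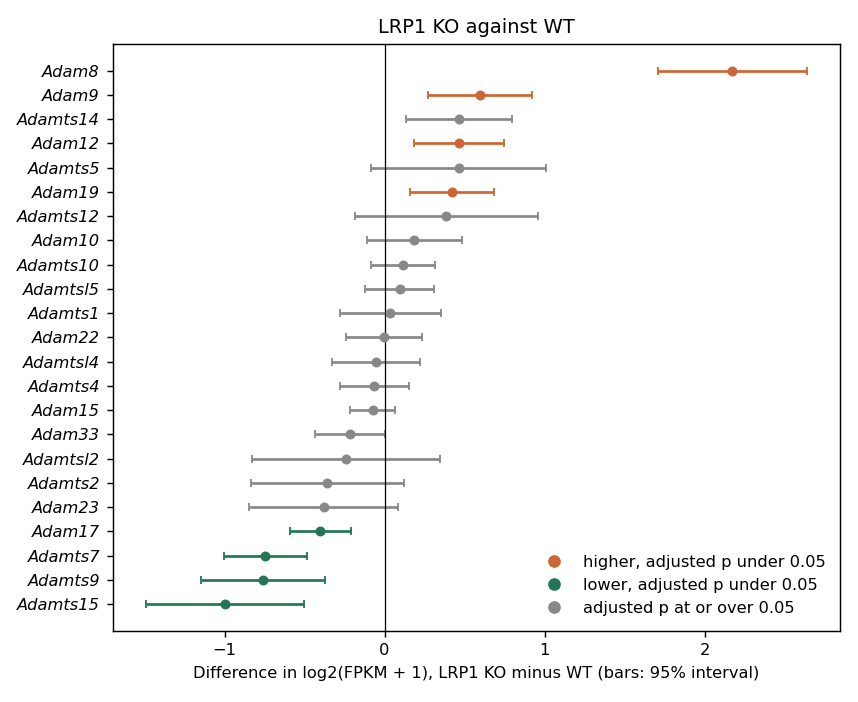
Difference in log2(FPKM + 1), LRP1 KO minus WT, for the 23 tested genes, with points for the limma estimate and bars for its 95% interval; orange and green mark genes with an adjusted p-value under 0.05. The estimates ran from -0.996 for Adamts15 to 2.17 for Adam8, and all 21 others lay between -0.76 and 0.60.

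Adam8 changed most. It encodes a sheddase best known from monocytes, macrophages and neutrophils. Its values were 0.849, 1.48, 1.76 and 1.41 FPKM across WT libraries 1 to 4 against 8.45, 14.3, 6.55 and 10.6 FPKM across LRP1 KO libraries 1 to 4. Every LRP1 KO library was thus above every WT library. The mean rose from 1.37 ± 0.382 to 9.97 ± 3.32 FPKM (SD, n = 4 each), a ratio of 7.25. The difference in log2(FPKM + 1) was 2.17 (SE 0.21, limma adjusted p 0.000628) and ranked 21 among the 11389 tested genes by size of change. Macrophage markers moved with it. Of 14 listed, 13 were in the table and 9 were tested, of which 7 rose, and the list summed to 55.7 to 96.0 FPKM across WT and to 359, 543, 223 and 483 FPKM across LRP1 KO libraries 1 to 4, the same order of libraries as for Adam8. Among its defining genes, Cd68 rose from 7.36 to 8.87 FPKM to 22.0 to 43.1 FPKM, whereas Fcgr1 and Cd163 stayed under 1 FPKM in every library, and none was at 0 in all libraries. Neutrophil markers summed to 0.531 to 1.64 FPKM across WT and to 1.26 to 4.01 FPKM across LRP1 KO, with Ly6g, Retnlg and S100a9 listed at 0 throughout and S100a8, the only tested gene of the list, rising by 0.94 (limma adjusted p 0.0475), a call that was lost without LRP1 KO library 4. The part of these cells in the change of Adam8 was not tested. In bulk libraries, a higher level can come from more cells of a type or from more RNA per cell, and these cannot be told apart.

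The other 3 that rose are also proteolytically active ADAMs. Adam9, a widely expressed sheddase, was at 85.1, 78.1, 109 and 107.5 FPKM across WT libraries 1 to 4 against 159, 129.7, 171 and 117 FPKM across LRP1 KO libraries 1 to 4. The lowest LRP1 KO library, number 4, was just above the highest WT library. Its mean rose to 144 ± 25.0 FPKM (SD, n = 4), 1.52 times WT, and by 0.60 on the log2 scale (SE 0.14, limma adjusted p 0.0297). Adam12, or meltrin alpha, which cuts insulin-like growth factor binding proteins and is known from mesenchymal cells, was at 6.09, 4.27, 6.20 and 5.64 FPKM across WT libraries 1 to 4 against 7.81, 6.98, 7.51 and 9.85 FPKM across LRP1 KO libraries 1 to 4. It rose 1.45 times, by 0.47 (SE 0.13, limma adjusted p 0.0405). Here library 4 was not the nearest to WT but the farthest from it. Adam19, or meltrin beta, a sheddase of neuregulin, was at 3.25, 3.48, 4.78 and 4.12 FPKM across WT libraries 1 to 4 against 5.29, 6.21, 6.08 and 4.69 FPKM across LRP1 KO libraries 1 to 4. It had a mean of 3.91 ± 0.686 FPKM for WT and of 5.57 ± 0.712 FPKM for LRP1 KO (SD, n = 4 for each), a rise by 0.42 (SE 0.12, limma adjusted p 0.0441). LRP1 KO library 4 lay under WT library 3, so the groups overlapped. These changes were near the threshold. The call for Adam9 was lost without WT library 1 or 2 or LRP1 KO library 1, 2 or 3 (estimates 0.51 to 0.64, adjusted p 0.0598 to 0.0840), that for Adam12 without any library other than LRP1 KO library 4 (0.36 to 0.52, adjusted p 0.0543 to 0.0934), and that for Adam19 without WT library 1, 2 or 4 or LRP1 KO library 1, 2 or 3 (0.36 to 0.45, adjusted p 0.0683 to 0.123). Without a filter on low values, which brings 18026 genes into the test, none of these 3 passed, at adjusted p 0.0618, 0.0761 and 0.0813. With replicate number as a block in the fit, Adam19 did not pass (limma adjusted p 0.0607), while Adam9 and Adam12 did (0.0425 and 0.0440).

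ADAM17, the enzyme that frees tumor necrosis factor and many growth factors, fell at the transcript level. Adam17 was at 21.5, 22.2, 23.9 and 19.7 FPKM across WT libraries 1 to 4 against 14.5, 15.9, 16.1 and 18.7 FPKM across LRP1 KO libraries 1 to 4. The groups did not overlap, and LRP1 KO library 4 came within about 1 FPKM of the lowest WT library. The mean in LRP1 KO was 74.7% of WT, a fall by 0.40 on the log2 scale (SE 0.08, limma adjusted p 0.0193). Without WT library 2 or LRP1 KO library 1, 2 or 3, the estimate was -0.40 to -0.35 and the call was lost (adjusted p 0.0544 to 0.0587). Its closest relative Adam10, which makes the activating cut in Notch receptors, was at 27.2 to 41.1 FPKM across WT against 32.5 to 41.0 FPKM across LRP1 KO, and did not pass (difference 0.19, 95% interval -0.11 to 0.48, limma adjusted p 0.345). The remaining catalytic ADAMs were Adam15, at 74.1 ± 4.69 and 70.3 ± 3.80 FPKM (SD, n = 4 each; difference -0.07, 95% interval -0.22 to 0.07), and Adam33, a gene of mesenchymal cells, at 14.6 ± 1.86 and 12.4 ± 1.22 FPKM (difference -0.22, 95% interval -0.44 to 0.00290, adjusted p 0.153). Adam28 was at 0.0340 FPKM or less in every library.

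For 31 of the 57 genes a promoter sequence was at hand, among them 4 of the called genes, Adam8, Adam19, Adam17 and Adamts9. The 250 bases before their RefSeq starts (GRCm38.p6, 5′ to 3′) are given to set genes that rose beside genes that fell. They lie at chr7:139992563-139992812 for Adam8, chr11:46055734-46055983 for Adam19 at the start nearest to its annotated one, chr11:46054252-46054501 for an Adam19 start further upstream, chr12:21373633-21373882 for Adam17 and chr6:92943535-92943784 for Adamts9, on the plus strand for Adam19 and the minus strand for the others, and capitals mark letters matched by the motif search described next.
Adam8: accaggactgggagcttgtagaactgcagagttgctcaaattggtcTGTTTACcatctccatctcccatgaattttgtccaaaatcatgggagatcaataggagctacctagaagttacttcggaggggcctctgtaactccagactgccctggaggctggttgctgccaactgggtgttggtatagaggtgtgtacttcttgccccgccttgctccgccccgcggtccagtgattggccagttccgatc
Adam19: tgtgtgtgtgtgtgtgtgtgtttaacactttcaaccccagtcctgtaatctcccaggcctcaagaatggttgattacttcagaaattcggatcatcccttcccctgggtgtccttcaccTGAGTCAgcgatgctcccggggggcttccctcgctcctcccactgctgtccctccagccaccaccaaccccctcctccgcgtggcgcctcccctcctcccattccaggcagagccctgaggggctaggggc
Adam19, upstream start: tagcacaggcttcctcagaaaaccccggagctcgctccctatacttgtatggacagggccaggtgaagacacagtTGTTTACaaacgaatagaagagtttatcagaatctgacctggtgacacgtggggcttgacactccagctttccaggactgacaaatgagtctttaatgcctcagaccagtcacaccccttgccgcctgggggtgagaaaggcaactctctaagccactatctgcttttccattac
Adam17: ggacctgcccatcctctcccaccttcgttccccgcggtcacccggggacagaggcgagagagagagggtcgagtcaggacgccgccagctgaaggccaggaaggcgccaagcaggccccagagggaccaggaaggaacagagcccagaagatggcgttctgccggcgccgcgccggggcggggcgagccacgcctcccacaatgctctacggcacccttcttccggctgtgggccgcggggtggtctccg
Adamts9: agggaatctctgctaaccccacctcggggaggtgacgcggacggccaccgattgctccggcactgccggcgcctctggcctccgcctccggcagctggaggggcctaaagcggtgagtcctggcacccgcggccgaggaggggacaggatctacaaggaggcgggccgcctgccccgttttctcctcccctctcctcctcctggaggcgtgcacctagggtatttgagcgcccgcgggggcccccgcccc
The Adam8 stretch held 52.8% G and C with 6 CpG pairs, close to the medians of 52.4% and 6 over all 32851 promoters of this length. The Adam19 stretches held 7 and, at the upstream start, 5 CpG pairs. Those of Adam17 and Adamts9 held 70.4% and 71.2% G and C with 23 and 22 CpG pairs. In the stretches, 4 motifs were searched on both strands. The FoxO motif, of interest because the study followed FoxO1, was spelled TGTTTAC. It occurred in the Adam8 stretch and in that of the upstream Adam19 start, as in 3.17% of all promoters, and in no other of the 33 promoter stretches of members. The Adam19 start nearest to its annotated one thus lacked it. For the other called genes, Adam9 and Adam12 among those that rose, no promoter sequence could be searched. The AP-1 motif was spelled TGANTCA and is present in 6.75% of all promoters. It was found at the Adam19 start nearest to the annotated one and in none of the other stretches shown. The PU.1 motif, named for an ETS factor of myeloid cells, was spelled GAGGAAGT and is present in 2.44%. The TATA box was searched as TATAAA, which 12.4% of all promoters hold. Neither of these was found in the stretches shown, and a further Adam19 stretch, at a start inside the gene, held none of the 4 motifs. A match of letters does not show that a factor binds there.

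The other 3 genes that fell were matrix proteases. Adamts7, which cuts cartilage oligomeric matrix protein (COMP), was at 36.7, 35.1, 28.3 and 28.6 FPKM across WT libraries 1 to 4 against 18.6, 17.4, 16.6 and 22.6 FPKM across LRP1 KO libraries 1 to 4. All LRP1 KO libraries were below all WT libraries. The mean fell from 32.2 ± 4.37 to 18.8 ± 2.65 FPKM (SD, n = 4 each), to 58.4% of WT, and by 0.75 on the log2 scale (SE 0.12, limma adjusted p 0.00612). Of the 8 called genes, only Adam8 had a smaller adjusted p. Adamts12, which cuts the same substrate, did not pass (4.21 to 10.2 FPKM across WT, 8.10 to 10.9 FPKM across LRP1 KO, difference 0.39, 95% interval -0.19 to 0.96).

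Among the 7 ADAMTS proteases known to cut versican or aggrecan, 5 were tested, 2 fell and none rose, where 7.31% of all tested genes fell and 6.27% rose. Adamts9, which cuts versican and is needed for development before birth, was at 22.8, 25.3, 26.9 and 25.8 FPKM across WT libraries 1 to 4 against 11.9, 14.2, 11.6 and 22.0 FPKM across LRP1 KO libraries 1 to 4. LRP1 KO library 4 was close to the WT range and the other 3 well below it. It fell to 59.2% of WT, by 0.76 on the log2 scale (SE 0.17, limma adjusted p 0.0238). Adamts15, a protease of versican in muscle and other mesenchymal tissue, was at 1.54, 2.32, 1.99 and 1.88 FPKM across WT libraries 1 to 4 against 0.117, 0.405, 0.214 and 1.40 FPKM across LRP1 KO libraries 1 to 4. Again library 4 stood near WT. The mean was 27.6% of WT and the fall 0.996 in log2(FPKM + 1) (SE 0.22, limma adjusted p 0.0226). This scale understates changes at such low values, and with a pseudocount of 0.1 the difference was -2.08. The call for Adamts9 was lost without WT library 2, 3 or 4 or LRP1 KO library 1, 2 or 3 (estimates -0.76 to -0.66, adjusted p 0.0518 to 0.0682) and without a filter on low values (adjusted p 0.0524), and that for Adamts15 without WT library 2 or 3 or LRP1 KO library 1, 2 or 3 (-0.99 to -0.87, adjusted p 0.0518 to 0.0708). Without LRP1 KO library 4 the differences were larger, at -0.95 (adjusted p 0.000382) and -1.23 (adjusted p 0.000523).

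The LRP1 ligands ADAMTS4 and ADAMTS5 belong to the same class. Adamts5 was at 20.8, 27.0, 43.1 and 39.9 FPKM across WT libraries 1 to 4 against 39.0, 46.8, 60.02 and 33.1 FPKM across LRP1 KO libraries 1 to 4. The groups overlapped, and its difference of 0.46 did not pass (95% interval -0.08 to 1.01, limma adjusted p 0.209). Adamts4 was low, at 1.02 to 1.45 FPKM across WT against 0.948 to 1.36 FPKM across LRP1 KO (difference -0.06, 95% interval -0.28 to 0.15). Adamts1 was at 118 to 195 FPKM across WT against 149.8 to 167.5 FPKM across LRP1 KO, with a difference of 0.04 (95% interval -0.28 to 0.35). Adamts1 and Adamts5 are neighbors on chromosome 16, 53.1 kb apart, and in each of them WT libraries 1 and 2 were below WT libraries 3 and 4. The same order of WT libraries held for Adam9, Adam10 and Adamts12, which lie on other chromosomes. Adamts8 and Adamts20 were at 0.413 FPKM or less.

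**Figure D3:**
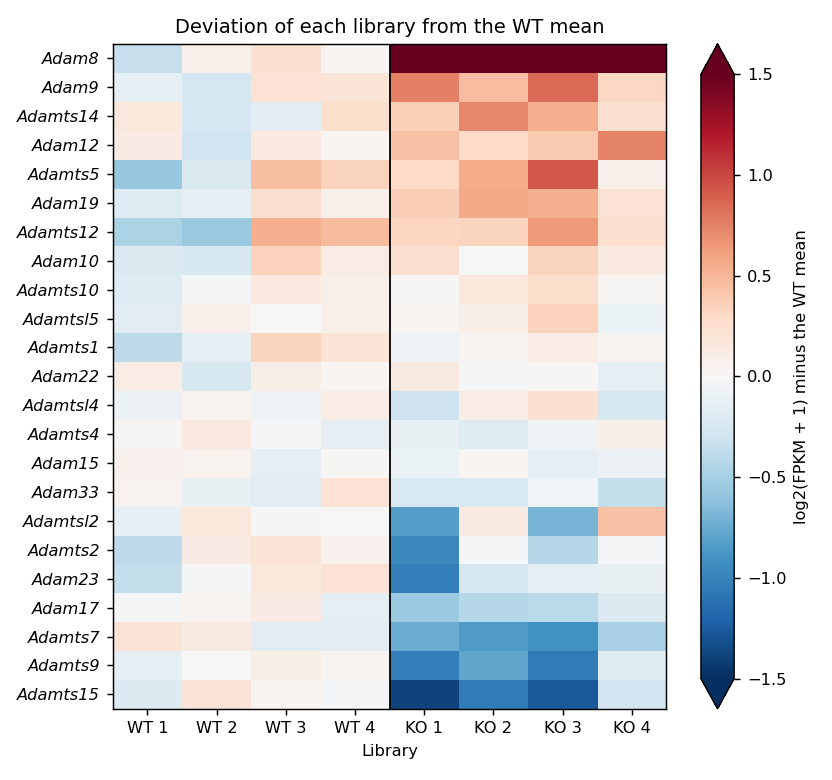
Deviation of log2(FPKM + 1) from the WT mean for the 23 tested genes (rows, ordered by the difference between groups) in the 8 libraries (columns); red is higher and blue lower, and the scale stops at 1.5 in either direction, which the Adam8 values in LRP1 KO exceed. In the rows of the 4 called genes at the bottom, LRP1 KO library 4 is paler than the other LRP1 KO libraries.

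In 6 of the 8 called genes, LRP1 KO library 4 was the LRP1 KO library nearest to the WT mean, including all 4 that fell. It was likewise nearest to WT on the first principal component of all tested genes, at 0.102 against 17.2 to 27.3 for the others. The same count over all called genes is not given here. EC marker sums in library 4 were also at the WT level. They were 621, 394 and 459 FPKM across LRP1 KO libraries 1 to 3 and 179 FPKM in library 4, within the WT range. Of 15 tested EC markers, Eng rose and the others did not pass, but 13 were called higher without library 4. Over all tested genes, 6.27% were higher and 7.31% lower with all libraries, and 12.6% higher and 13.9% lower without library 4. Fibroblast markers summed to 2215, 2928 and 2683 FPKM across LRP1 KO libraries 1 to 3 and to 3447 FPKM in library 4, with Pdgfra, Thy1 and Dpt lower, Postn higher and 8 of 12 not called; without library 4, 7 were lower. Mural cell markers rose in 5 of 9 tested genes, with sums of 1646, 1388, 1564 and 1047 FPKM across LRP1 KO libraries 1 to 4, and 7 of 9 were called higher without library 4. None of these lists had a gene at 0 in every library. The plot of Adam8 and Adamts15 beside marker sums shows that Adamts15 was lowest in the library with the most EC marker transcript (0.117 FPKM in LRP1 KO library 1) and highest of the LRP1 KO libraries in library 4. The part of cell composition in these differences was not tested.

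**Figure D4:**
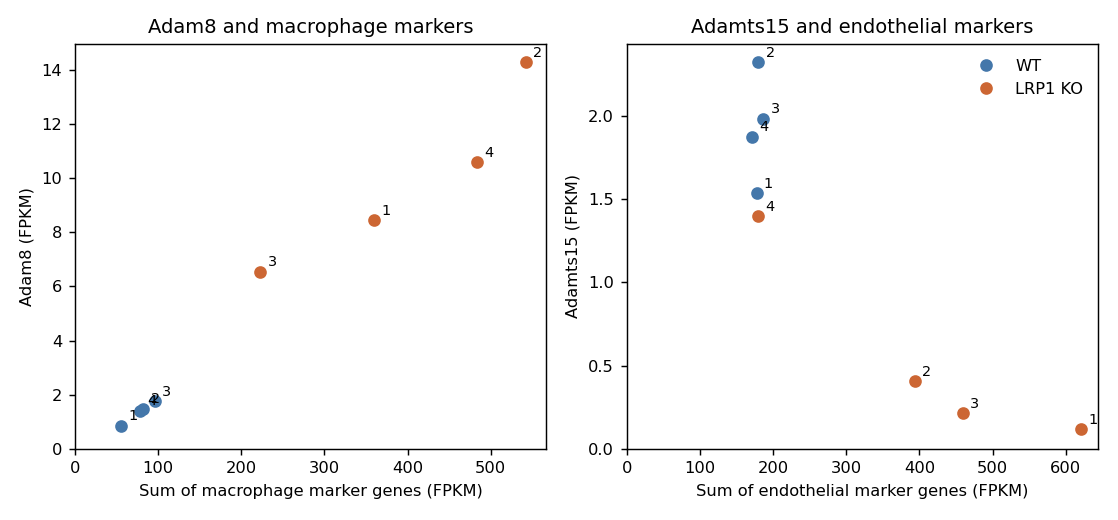
Left, FPKM of Adam8 against the summed FPKM of the macrophage markers; right, FPKM of Adamts15 against the summed FPKM of the EC markers; each point is 1 library with its number, WT in blue and LRP1 KO in orange. LRP1 KO library 4 has a high macrophage sum (483 FPKM) but an EC sum at the WT level (179 FPKM).

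The procollagen N-propeptidases, which cut the leading propeptide from fibrillar procollagens, gave no call. Adamts2 was at 44.2 to 67.1 FPKM across WT against 29.4, 57.2, 43.2 and 57.6 FPKM across LRP1 KO libraries 1 to 4 (difference -0.36, 95% interval -0.83 to 0.12). Adamts14 was at 1.18, 0.642, 0.743 and 1.35 FPKM across WT against 1.52, 2.23, 1.85 and 1.31 FPKM across LRP1 KO, with a difference of 0.47 (limma adjusted p 0.0642) that passed without LRP1 KO library 4 (0.54, adjusted p 0.0299). Only library 4 of LRP1 KO reached into the WT range. Adamts3, which also activates VEGF-C, stayed at 0.421 FPKM or less and was not tested. Of the remaining ADAMTS genes, Adamts10, which binds fibrillin microfibrils, was tested (13.1 ± 1.39 and 14.2 ± 1.30 FPKM, SD, n = 4 each; difference 0.11, 95% interval -0.09 to 0.32). Adamts13, the protease of von Willebrand factor, was listed at 0 in all WT libraries, and Adamts19 in all 8 libraries.

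No member without a protease role passed in the reported fit. Adam23, a receptor for secreted LGI proteins best known from neurons, was at 20.2 to 30.5 FPKM across WT, a level near that of Adam10 and Adam17. In LRP1 KO it was at 12.4, 21.7, 23.7 and 24.2 FPKM in libraries 1 to 4 (difference -0.38, 95% interval -0.84 to 0.08, limma adjusted p 0.223). With replicate number as a block in the fit, Adam23 passed at the same estimate (limma adjusted p 0.0466). Its relative Adam22 was at 1.93 ± 0.323 FPKM across WT against 1.91 ± 0.236 FPKM across LRP1 KO (SD, n = 4 each; difference -0.00210, 95% interval -0.24 to 0.23). The ADAMTS-like proteins bind fibrillin microfibrils. Adamtsl5 was at 33.9 to 40.0 FPKM across WT against 35.3 to 48.4 FPKM across LRP1 KO, and Adamtsl4 at 9.01 to 10.5 and 7.56 to 11.4 FPKM. Adamtsl2 was more uneven, at 1.96 to 2.59 FPKM across WT against 0.821, 2.53, 0.990 and 3.37 FPKM across LRP1 KO libraries 1 to 4 (difference -0.24, 95% interval -0.83 to 0.35).

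The 24 members that were above 0 but not tested reached at most 1.26 FPKM, and only Adam11 (0.486 to 1.26 FPKM) and Adamtsl1 (0.310 to 0.896 FPKM) reached 0.5 FPKM in any library. In GRCm38, by the GENCODE M21 annotation, the 4 genes that rose lie at chr7:139978932-139992562 (Adam8, minus strand), chr8:24949611-25016927 (Adam9, minus), chr7:133883199-134232146 (Adam12, minus) and chr11:46055992-46147343 (Adam19, plus). The 4 that fell lie at chr12:21323509-21373632 (Adam17, minus), chr9:90163069-90208071 (Adamts7, plus), chr6:92772699-92943492 (Adamts9, minus) and chr9:30899155-30922452 (Adamts15, minus). Chromosome 8 holds 14 members, of which Adam9 alone was tested and 5 were listed at 0 in every library. Adam9 lies 0.8 kb from Adam32, a testis gene at 0.0935 to 0.424 FPKM, which is itself 11.8 kb from Adam5. Likewise Adamts15 lies 20.1 kb from Adamts8, which stayed at about 0.1 FPKM or lower. Summed over all members, ADAM transcripts were at 279 ± 24.0 FPKM across WT against 327 ± 21.7 FPKM across LRP1 KO, ADAMTS transcripts at 332 ± 56.2 and 312 ± 25.7 FPKM, and ADAMTS-like transcripts at 50.6 ± 3.67 and 53.0 ± 6.42 FPKM (SD, n = 4 each). Adam9 alone, at means of 94.9 and 144 FPKM, differed by as much as the ADAM sum.

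Partners of these proteases were examined as lists, beside a median log2 difference of -0.01 over all tested genes, of which 6.27% rose and 7.31% fell. Among the 5 inhibitors, Timp1 and Timp3 rose, Timp4 fell, and Timp2 and Reck did not pass (median 0.08). Timp3, the main inhibitor of ADAM17 and of ADAMTS4 and ADAMTS5, went from 319 to 402 FPKM in the mean, by 0.34 (SE 0.07, limma adjusted p 0.0183), and Timp1, which inhibits ADAM10, from 333 to 415 FPKM, by 0.31 (SE 0.07, limma adjusted p 0.0240). Of 7 tested partners that guide ADAM17 or ADAM10 to the surface, the tetraspanin Tspan17 rose from 19.7 to 25.9 FPKM and Tspan33 fell from 5.36 to 2.95 FPKM, while the iRhoms Rhbdf1 and Rhbdf2 did not pass (median -0.05). Among the proprotein convertases, which remove the inhibitory propeptides of these enzymes, Furin was at 29.4 and 29.3 FPKM, Pcsk5 rose from 2.10 to 5.26 FPKM, Pcsk6 fell from 35.7 to 29.2 FPKM and Pcsk7 did not pass.

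Among known substrates of ADAM10 and ADAM17, 34 were tested beside Lrp1 itself. Of these, 11 rose and 2 fell, with a median of 0.35, where 6.27% of all tested genes rose and 7.31% fell. Those that rose include the adhesion receptor Cd44 (10.4 to 23.6 FPKM), the Notch ligand Jag1 (4.53 to 11.3 FPKM) and thrombomodulin, Thbd (49.7 to 70.1 FPKM), but also the myeloid genes Trem2 and Csf1r, the second of which is in the macrophage list. The membrane chemokine Cxcl16 (51.5 to 29.6 FPKM) and the interleukin 6 receptor Il6ra (8.88 to 6.23 FPKM) fell. For matrix substrates, Vcan, which encodes versican, rose from 6.91 to 10.7 FPKM, by 0.58 (SE 0.14, limma adjusted p 0.0283), Dcn and Bgn did not pass, and none of 6 tested procollagen and other matrix substrates passed. Of 5 tested fibrillin and latent TGF-beta binding proteins, Ltbp1, Ltbp2, Ltbp3 and Ltbp4 fell and Fbn1 did not pass (median -0.70), where 7.31% of all tested genes fell. These counts depended on the libraries used and on the processing. When 1 library was left out, the number called among the substrates of ADAM10 and ADAM17, Lrp1 included, ran from 6 (without WT library 2 or LRP1 KO library 2) to 23 (without LRP1 KO library 4), and that among the fibrillin group from 0 (without WT library 2 or LRP1 KO library 2) to 4. Among the inhibitors 1 to 3 were called, and among the convertases 0 to 2, with 0 in 6 of the 8 fits. Of the partners that guide ADAM17 or ADAM10, 1 was called in 7 of the 8 fits and 3 without LRP1 KO library 4. No proteoglycan substrate, Vcan included, was called without WT library 1, 2 or 3 or LRP1 KO library 2 or 3, and none without a filter on low values. With all 8 libraries kept, counts also fell: without a filter to 2 in the fibrillin group, to 1 among the partners that guide ADAM17 or ADAM10, to 11 among the substrates with Lrp1 and to 0 among the convertases, which were also at 0 without a variance trend and at 1 with median-ratio scaling.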

How the data were processed

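Gene expression was measured by RNA sequencing (total RNA, Illumina TruSeq) in 8 libraries, 4 LRP1 KO and 4 WT, grouped by sample title. The deposited FPKM values are not whole numbers and have nearly equal sums and the same highest value in each library, as after quantile normalization by the authors. Neither the unit nor this normalization is named in the sources used here; both are inferred from the values and from Cufflinks in the submitters' notes. The submitters' processing notes name TopHat2, Cufflinks and mm10, while the study's methods describe STAR and featureCounts, which give counts. Library depth and counting error could not be recovered. Expression was analysed as log2(FPKM + 1) for the 11389 genes with at least 1 FPKM in at least 4 libraries, with limma 3.58.1 in R 4.3.3 (group as the only term, variance trend, moderated test), with Benjamini-Hochberg adjustment over these genes. The test was tried on simulated data. Alternatives were a pseudocount of 0.1, no filter, median-ratio scaling, no variance trend, a replicate block and leaving out each library. Positions are from GENCODE M21 (GRCm38) and promoters from RefSeq (GRCm38.p6). Members, gene lists and tests were chosen with earlier results of these data known. Every tested member is named, as are untested members that reached 0.5 FPKM; other genes, list members among them, were named after their values were seen. The mural list shares Pdgfrb with the fibroblast list and Des with the stellate list, and 12 genes (Mertk, Csf1r, Cdh5, Kdr, Tek, Tie1, Vwf, Col1a1, Col1a2, Col3a1, Dcn and Reln) stand in both a marker list and a substrate list. A macrophage marker without a row was not analysed here.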

Additional observations from a re-analysis of the deposited data

Results flagged for a closer look

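Adamtsl1, an ADAMTS-like gene too low to be tested, was at 0.310 FPKM in WT library 4 and at 0.529 to 0.571 FPKM in the other 3 WT libraries. The gap to the nearest of the others was 0.842 of the whole range of the group, above the limit of Dixon's test at the 95% level for 4 values. Such gaps were looked for in 50 groups of 4 values (25 genes in WT and in LRP1 KO), and chance flags about 1 in 20, or 2.5 of 50.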

How the results depend on the processing

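Of the 5 alternatives that kept all 8 libraries, a pseudocount of 0.1, median-ratio scaling and no variance trend called the same 8 members as the reported fit. Without a filter on low values, 4 were called (Adam8 as the 1 higher, Adam17, Adamts7 and Adamts15 lower). In that fit 1163 of 18026 genes were called, or 6.45%, against 13.6% in the reported fit. With a pseudocount of 0.1, 2 members passed the 2-fold limit, Adam8 and Adamts15. When 1 library was left out, 2 to 9 members were called, 1 to 5 higher and 1 to 4 lower, with 1 to 2 past 2-fold. Of all tested genes, 512 to 3021 were then called against 1547, the lowest without WT library 2 and the highest without LRP1 KO library 4. The cause was not tested. Directions turned only in genes that were never called: Adam22 (0.00840 with median-ratio scaling; -0.0835 to 0.0455 without 1 library), Adamts1 (-0.0933 to 0.148) and Adamtsl4 (-0.15 to 0.0320). Median-ratio scaling moved the median difference over all genes from -0.00910 to 0.00470. The labels do not say whether the replicate numbers pair the samples, and the values do not settle it. Deviations of same-numbered libraries correlated at 0.158, 0.141 and 0.340 for numbers 1 to 3 and at -0.312 for number 4. Of the 4 LRP1 KO libraries, 3 correlated best with the WT library of their own number. With a replicate block, 1013 genes and 8 members were called, without Adam19 and with Adam23 (-0.38, adjusted p 0.0466), and of the partner lists 10 substrates with Lrp1 (from 14), 2 fibrillin-group genes (from 4), 1 guiding partner of ADAM17 or ADAM10 (from 2), 1 convertase (from 2) and no proteoglycan substrate (from 1, Vcan). Depth is unknown, so for members near 0 no limit of detection can be given.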

Other observations

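Several matrix proteases differed among the WT libraries themselves. Adamts12 was at 4.51 and 4.21 FPKM across WT libraries 1 and 2 and at 10.2 and 9.67 FPKM across WT libraries 3 and 4, a wider spread than in LRP1 KO (8.54, 8.65, 10.9 and 8.10 FPKM). Adamts5, Adamts1, Adam9 and Adam10 were likewise lower in WT libraries 1 and 2, at 27.7 and 27.2 FPKM against 41.1 and 34.9 FPKM for Adam10, while Adamts7 was higher in them, at 36.7 and 35.1 FPKM against 28.3 and 28.6 FPKM. The labels give no batch that separates these libraries, and name the same mixture of organs for all of them.

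Among members too low to be tested, Adamts3 was at 0.313 to 0.421 FPKM across WT against 0.188, 0.232, 0.160 and 0.313 FPKM across LRP1 KO libraries 1 to 4, and its difference of -0.14 in the fit without a filter had an adjusted p of 0.0882. Adam18, a testis gene, was at 0.221 FPKM in WT library 2 and listed at 0 in the other WT libraries.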
